A study of Mus musculus with 4 samples.

Results

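The 10 genes described here are Ptprc, Cd53, Cd52, Cd48, Cd37, Laptm5, Coro1a, Lcp1, Lcp2 and Spi1, a set that most white blood cells use, measured in bone marrow cells sorted as negative for CD45. They were taken by symbol, and all 10 were found among the 19938 genes with a value. Each had 1 probe set that named it alone. The arrays held cells labelled as nestin-positive marrow stroma, from C57BL/6 Nes-gfp mice, whose nestin promoter drives green fluorescent protein, collected for reporter fluorescence and for lack of CD45, CD31 and Ter119 at the surface. In the MPN group (myeloproliferative neoplasm, n = 3 mice) the mice had received, 10 weeks before, cells with Mx1-cre, a Cre recombinase under an interferon-inducible promoter, and the mutant allele JAK2-V617F. The control group was 1 Nes-gfp mouse that had received control cells at the same interval, and the labels do not give the genotype of those donor cells. For the MPN samples the labels list reporter, Cre and JAK2 allele as 1 genotype, although the design text places Cre and JAK2 allele in the transplanted cells. The sample titles name each sample as a mouse, and nothing else says that the samples were raised or sorted separately.

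CD45, the product of Ptprc, is a receptor tyrosine phosphatase on the surface of nucleated blood cells and the usual handle for telling blood cells from stroma. A sort for CD45-negative cells acts on protein at the cell surface, while an array measures RNA. The other members belong to the leukocyte surface (Cd53, Cd37, Cd52 and Cd48), the lysosome (Laptm5), the actin cytoskeleton (Coro1a and Lcp1), signalling from immune receptors (Lcp2) and transcription (Spi1). Spi1 encodes PU.1, a factor of the ETS family that directs myeloid and B cell development and binds sites with the core GAGGAA.

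Promoters of members with and without that core are shown because the gene of PU.1 is itself a member and several members were higher on the same arrays. The sequences are from RefSeq on GRCm38.p6, whose table held 8 of the 10 members. Ptprc, Coro1a and Lcp1 were listed there with 2 starts each. Each run is the 250 bases before the most upstream start, 5′ to 3′ on the gene's own strand, with GAGGAA or its reverse complement in capitals.
Ptprc promoter (chr1:138175306-138175555, minus strand): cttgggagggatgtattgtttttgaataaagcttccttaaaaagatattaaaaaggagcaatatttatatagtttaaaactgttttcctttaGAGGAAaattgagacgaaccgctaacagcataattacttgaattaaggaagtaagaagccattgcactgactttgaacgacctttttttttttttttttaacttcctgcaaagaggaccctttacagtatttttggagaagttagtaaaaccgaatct
Cd53 promoter (chr3:106790150-106790399, minus strand): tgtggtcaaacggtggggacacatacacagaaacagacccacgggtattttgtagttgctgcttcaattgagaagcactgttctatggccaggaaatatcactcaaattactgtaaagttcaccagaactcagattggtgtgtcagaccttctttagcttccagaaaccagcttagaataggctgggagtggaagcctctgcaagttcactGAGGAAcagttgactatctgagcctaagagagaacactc
Laptm5 promoter (chr4:130913066-130913315, plus strand): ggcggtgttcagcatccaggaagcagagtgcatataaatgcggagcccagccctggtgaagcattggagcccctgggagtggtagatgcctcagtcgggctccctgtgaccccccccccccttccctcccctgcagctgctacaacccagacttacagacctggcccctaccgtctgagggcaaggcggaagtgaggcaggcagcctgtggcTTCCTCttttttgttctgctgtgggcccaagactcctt
Cd37 promoter (chr7:45238840-45239089, minus strand): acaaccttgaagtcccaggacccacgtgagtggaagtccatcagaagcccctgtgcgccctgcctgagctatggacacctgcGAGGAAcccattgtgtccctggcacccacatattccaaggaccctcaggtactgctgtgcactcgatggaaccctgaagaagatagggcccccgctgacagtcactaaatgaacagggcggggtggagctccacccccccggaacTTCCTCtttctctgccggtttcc
Coro1a promoter (chr7:126704817-126705066, minus strand): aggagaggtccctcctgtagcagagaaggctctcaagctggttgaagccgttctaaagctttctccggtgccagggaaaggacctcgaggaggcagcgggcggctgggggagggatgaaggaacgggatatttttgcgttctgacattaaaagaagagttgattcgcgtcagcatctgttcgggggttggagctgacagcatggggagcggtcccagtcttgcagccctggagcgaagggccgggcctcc
Lcp1 promoter (chr14:75130873-75131122, plus strand): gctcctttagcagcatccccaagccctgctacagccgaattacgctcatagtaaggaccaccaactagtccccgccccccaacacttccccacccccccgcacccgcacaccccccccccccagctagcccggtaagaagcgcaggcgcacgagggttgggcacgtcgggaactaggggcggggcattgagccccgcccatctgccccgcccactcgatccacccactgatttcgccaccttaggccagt

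The core GAGGAA, searched on both strands in the 250 bases before every start, was present for 4 of the 8 members, which were Ptprc, Cd53, Laptm5 and Cd37. Among all 27025 genes of the promoter table, 25.9% had it before at least 1 start. In Cd53 it lay at positions -39 to -34 from the start, in Laptm5 at -38 to -33 on the opposite strand, and in Ptprc at -158 to -153. Cd37 had it at -168 to -163 and, on the opposite strand, at -23 to -18. The windows of Cd48, Coro1a, Lcp1 and Lcp2 did not hold these letters. These are matches of letters in a window, and binding was not measured.

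RNA of the set was detected on the control array as well as on the MPN arrays. Values are on the log2 scale of the deposited data. A background limit of 5.21 was set at the 95th percentile over 1194 receptor genes of smell (olfactory and vomeronasal), taken as silent in marrow. Each receptor gene entered with its mean over the 4 arrays. Their median was lower on the control array, at 3.26, than on the MPN arrays, at 3.54, 3.6 and 3.41. All 10 members were above the limit on each of the 3 MPN arrays, where 54.4% of all genes had a group mean above it. On the control array 8 of the 10 members were above it, against 51.2% of all genes. Ptprc lay 1.86 above the limit on that array, while Cd37 and Spi1 lay at -0.04 and -0.30 relative to it. In the control mouse Ptprc exceeded 99.9% of the receptor genes, Cd48 exceeded 98.7%, Cd37 exceeded 96.6% and Spi1 exceeded 94.5%. Against the receptor genes on that array alone, Cd37 was thus past the 95th percentile, although it was under the limit.

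Most of the set was higher in the MPN mice than in the control mouse. Of the 10 members, 6 were at least 2-fold higher than the control on each MPN array (Ptprc, Cd53, Cd52, Laptm5, Coro1a and Lcp1), where 1.13% of all genes were. Among genes above the background limit on the control array, 1.61% were. The MPN mean of these 6 was 5.72-fold to 12.7-fold the control value. All 3 MPN arrays lay above the control for 9 of the 10 members, against 46.8% of all genes, and Lcp2 was the member whose groups overlapped. The median difference of the members, MPN mean minus control, was 2.67, beside 0.179 for all genes and 0.255 for the receptor genes. In sorted bulk samples such as these, more cells of a type and more RNA per cell cannot be told apart.

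After Benjamini-Hochberg adjustment over all genes, 0 of the 10 members passed limma's test at 0.05, and 0 of the 19938 genes did (0%). The smallest adjusted p among the members was 0.0871, for Laptm5, which was also the smallest over all genes. Genes outside the set shared this value, among them Tspan6, Camp and Kitl. Their unadjusted p from limma was smaller, at 4.72e-05, 0.000119 and 0.000218, against 0.000321 for Laptm5. An unadjusted p under 0.05 was found for 6 members, all higher in MPN, where 3.97% of all genes were higher at that level. In either direction 2511 genes had such a p. The spread in this fit comes from the 3 MPN arrays alone, so the control mouse was assumed to vary as they do. The members were chosen with earlier results of these data known, and counts over them are a description.

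**Figure D1:**
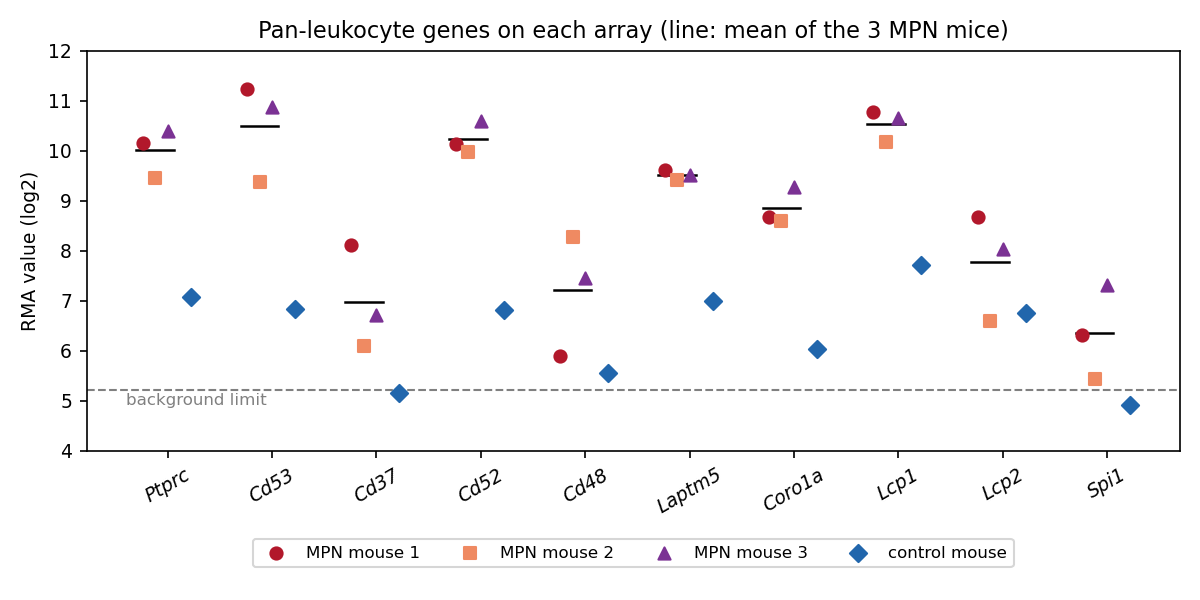
Deposited RMA values (log2) of the 10 members on each array, with the 3 MPN mice left of the control mouse, a line at the MPN mean and a dashed line at the background limit of 5.21. The MPN points lie above the control point for 9 members, and for Lcp2 MPN mouse 2 is at 6.59 and the control at 6.75.

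Ptprc had values of 10.16, 9.46 and 10.40 on the arrays of MPN mice 1, 2 and 3, against 7.07 on the control array. All MPN values were well clear of the control, and the lowest was that of MPN mouse 2. Their mean was 10.01 ± 0.49 (SD, n = 3), 7.69-fold the control value, with a log2 difference of 2.94 (SE 0.46, limma adjusted p = 0.169). A larger difference was seen in 0.231% of all genes. CD45 removes an inhibitory phosphate from kinases of the Src family, of which 5 were measured. Fgr, a kinase of myeloid cells, was at 5.87, 5.26 and 6.65 in MPN against 5.02 in the control (difference 0.91, SE 0.63). Yes1, which many tissues use, was at 3.93, 3.91 and 3.45 in MPN against 6.65 (difference -2.88, SE 0.28). Blk, a kinase of B cells, differed by 0.20, Src by 0.38 and Fyn by -0.73. Of these 5 kinases 0 passed the adjusted test.

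Other receptor tyrosine phosphatases mostly lay on the other side of the control. Of 12 measured, 8 were lower than the control on each MPN array, where 21.1% of all genes were. Higher on each were 3, where 46.8% of all genes were, and the median difference was -0.55. An unadjusted p under 0.05 was found for 6 that were lower, where 8.63% of all genes were lower at that level. It was also found for 3 that were higher, where 3.97% of all genes were. At least 2-fold lower on each MPN array were 5 of the 12, where 5.78% of all genes were. The 1 that was at least 2-fold higher was Ptpre, at 6.22, 6.88 and 7.31 in MPN against 4.90 (difference 1.91, SE 0.50). Its control value was under the background limit. Ptprd had the lowest difference, with 7.47, 5.49 and 6.84 in MPN against 10.70 (-4.10, SE 0.91), and Ptprz1 followed at -3.24 (SE 0.20). Ptpro was second highest at 0.75 (SE 0.23), and Ptprb followed at 0.57 (SE 0.18). Both were under the background limit on all arrays. Differences of the receptor genes had a 95th percentile of 0.65, with Ptprb below it and Ptpro slightly above. Ptprcap, whose protein is bound to CD45 in lymphocytes, was at 6.14, 6.65 and 6.23 in MPN against 6.17 in the control. The groups overlapped for Ptprcap, and its difference of 0.18 (SE 0.28) was that of the median gene.

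Cd53 and Cd37 encode tetraspanins, small membrane proteins that organise receptors in the plane of the membrane. Cd53 was at 11.24, 9.37 and 10.88 in MPN mice 1, 2 and 3, against 6.83 in the control. All MPN values were far above the control, and MPN mouse 2 was the lowest of them by a wide margin. With 3.67 (SE 0.89, adjusted p = 0.285), a 12.7-fold change, Cd53 had the largest difference of the 10 members. Cd37, best known from B cells, was at 8.12, 6.09 and 6.72 in MPN against 5.16 in the control. MPN mouse 1 stood highest, and MPN mouse 2 was 0.93 above a control value that lay at the background limit. The difference of 1.81 (SE 0.93, adjusted p = 0.464) depends on where background lies, because the control value is not separated from it. Leaving out MPN mouse 2 gave 2.25, and leaving out MPN mouse 1 gave 1.24.

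Tetraspanins outside the set were mostly lower in MPN. Of 10 measured, 7 were lower than the control on each MPN array, where 21.1% of all genes were. Higher on each was 1, where 46.8% of all genes were, and the median difference was -0.81. Tspan6 was at 3.54, 3.64 and 3.44 in MPN against 8.03 (difference -4.49, SE 0.17). Cd151, a partner of laminin-binding integrins, was at 5.18, 5.05 and 4.45 against 7.02 (difference -2.12, SE 0.37). Both had MPN values below the background limit. Tspan32, a tetraspanin of blood cells, was at 4.41, 5.45 and 5.0 in MPN against 4.48, so its groups overlapped, and Tspan9 differed by 0.34. Of these 10 genes 0 passed the adjusted test.

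Cd52 and Cd48 encode surface proteins held by a lipid anchor. Cd52, a very short glycoprotein of lymphocytes and other leukocytes, was at 10.14, 9.97 and 10.60 in MPN, against 6.82 in the control. The MPN mice were close together, with an SD of 0.33, and the difference was 3.42 (SE 0.32, adjusted p = 0.101), or 10.7-fold. Cd48, the ligand of the receptor encoded by Cd244a, was at 5.90, 8.28 and 7.46 in MPN against 5.56. Its MPN values were the most spread of the 10 members, with an SD of 1.21, and MPN mouse 1 was 0.33 above the control. The difference of 1.65 (SE 1.08, adjusted p = 0.513) became 1.12 when MPN mouse 2 was left out and 2.31 when MPN mouse 1 was. Of the 10 members, Cd48 was the only one that was highest in MPN mouse 2 and the only one that was lowest in MPN mouse 1.

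The SLAM family, to which Cd48 belongs, was otherwise near background. Of the 8 other family genes measured, 3 had an MPN mean above the limit, where 54.4% of all genes did. In the control 3 were above it, where 51.2% of all genes were. Cd84 had the largest difference, with 4.28, 4.88 and 6.09 in MPN against 3.72 (1.36, SE 0.83), and reached the limit in MPN mouse 3 alone. Cd244a was at 5.46, 5.94 and 5.46 in MPN against 5.90. The differences of Slamf1, Ly9, Slamf6, Slamf7, Slamf8 and Slamf9 lay between 0.04 and 0.51. The family's median difference was 0.25, close to that of the receptor genes.

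Laptm5 encodes a lysosomal membrane protein of blood cells that promotes the degradation of antigen receptors. Its values were 9.61, 9.42 and 9.52 in MPN, against 7.0 in the control. The MPN arrays spanned 0.19, the smallest spread of the 10 members (SD 0.09), and lay far from the control. The difference was 2.52 (SE 0.17), or 5.72-fold, with adjusted p = 0.0871. Relatives that many tissues use lay on the other side. Laptm4a was at 9.01, 9.86 and 9.19 in MPN against 10.69 (difference -1.34, SE 0.43), and Laptm4b at 5.10, 5.17 and 4.19 against 5.31 (difference -0.49, SE 0.50).

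Coro1a and Lcp1 encode actin-binding proteins of blood cells. Coronin 1A, the product of Coro1a, acts on actin filaments together with the Arp2/3 complex, and its gene was at 8.68, 8.59 and 9.27 in MPN against 6.03. The MPN values were all well above the control (difference 2.82, SE 0.36, adjusted p = 0.138). Lcp1, the gene of L-plastin, which bundles actin filaments, was at 10.78, 10.18 and 10.66 in MPN against 7.72. Its difference was also 2.82 (SE 0.32, adjusted p = 0.124), again with no overlap. In fold terms Coro1a was 7.06-fold and Lcp1 7.05-fold the control value.

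Relatives of these actin-binding proteins lay in both directions. Pls3, the plastin of many solid tissues, was at 4.30, 4.18 and 4.90 in MPN against 7.86 in the control (difference -3.40, SE 0.37, adjusted p = 0.117). In MPN it was under the background limit. Pls1, the plastin of intestine and inner ear, was under the limit in both groups and differed by 0.42. Coro1c, a widely used coronin, was at 5.66, 6.18 and 6.18 in MPN against 7.43 (difference -1.43, SE 0.30). Coro1b overlapped, with 6.41, 6.39 and 7.97 against 7.07. Coro1b had a difference of -0.14. The remaining coronins differed by 0.53 for Coro2a, 0.57 for Coro2b, 0.18 for Coro6 and 0.52 for Coro7.

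**Figure D2:**
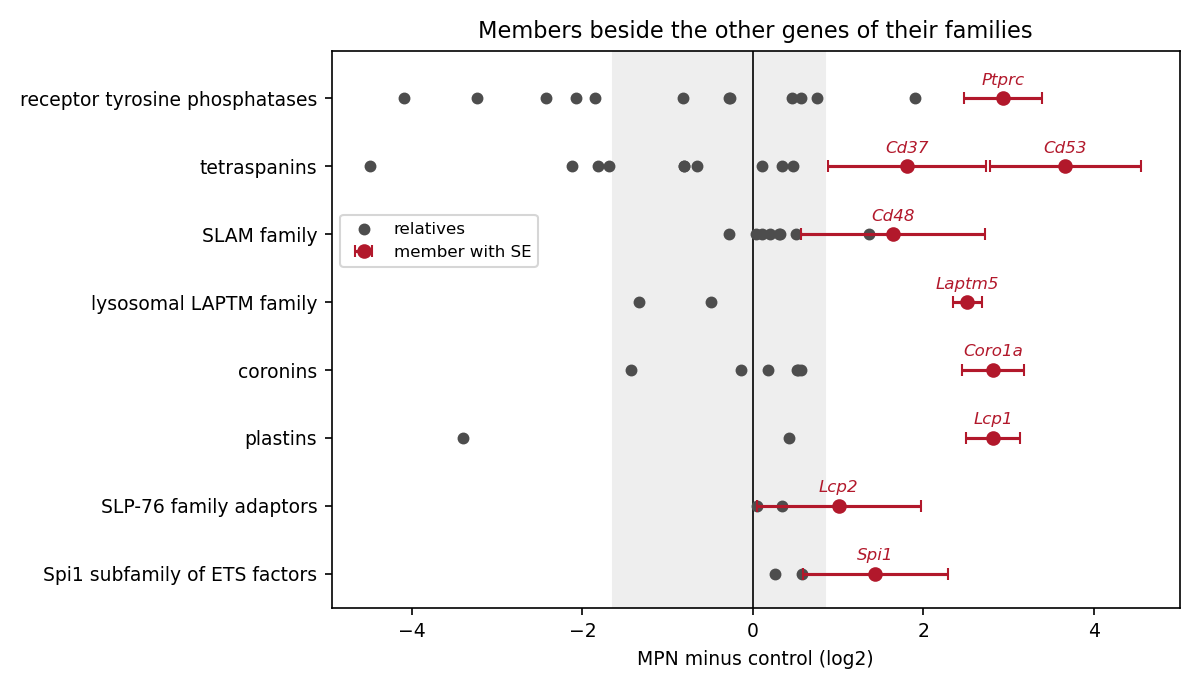
Log2 difference, MPN mean minus control, of 9 members (red, with SE) and of the other measured genes of their families (grey), with 1 family in each row; the grey band runs from the 5th to the 95th percentile of all genes, -1.64 to 0.85. All 9 members lie right of the relatives drawn in their rows, except Cd37 and Cd53 relative to each other, and the SE bars of Cd48 and Lcp2 reach their nearest relatives.

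Lcp2 encodes SLP-76, an adaptor that links Syk family kinases to phospholipase C gamma in T cells, platelets and myeloid cells. It was at 8.68, 6.59 and 8.04 in MPN mice 1, 2 and 3, against 6.75 in the control. MPN mouse 2 lay at -0.17 from the control and the other MPN mice above it, so the groups overlapped. The difference of 1.01 (SE 0.96, adjusted p = 0.62) was the smallest of the 10 members. Leaving out MPN mouse 2 gave 1.6, and leaving out MPN mouse 1 gave 0.56. Blnk, the related adaptor of B cells, and Clnk were under the background limit in both groups, with differences of 0.05 and 0.34.

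Partners of SLP-76 in signalling were mixed. Of 13 measured, 8 were higher than the control on each MPN array, where 46.8% of all genes were, and 2 were lower, where 21.1% were. The other 3 overlapped, and the median difference was 0.62. At least 2-fold higher on each MPN array were 2, where 1.13% of all genes were. Both encode signalling chains of receptors on myeloid and natural killer cells. Tyrobp was at 11.36, 11.16 and 11.42 in MPN against 8.84 (difference 2.47, SE 0.19, adjusted p = 0.0871). Fcer1g was at 9.79, 9.08 and 10.34 against 7.26 (difference 2.48, SE 0.58, adjusted p = 0.271). The lowest were Plcg1, a widely used phospholipase C gamma, at 5.03, 5.27 and 4.85 against 6.72 (difference -1.67, SE 0.24), and the adaptor gene Nck1 at -1.44 (SE 0.80). Plcg2, the form of blood cells (picked once its values were known) was at 6.66, 7.40 and 6.40 against 5.78 (difference 1.04, SE 0.48). Of the 13 partners 0 passed the adjusted test.

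Spi1, the gene of PU.1, was at 6.31, 5.43 and 7.31 in MPN against 4.91 in the control. All 3 MPN arrays were above the control and above the background limit, MPN mouse 2 by a small margin. The difference of 1.44 (SE 0.85, adjusted p = 0.487) is taken against a control value under the limit. Leaving out MPN mouse 2 gave 1.90, and leaving out MPN mouse 3 gave 0.96. The related factor genes Spib and Spic had group means under the limit, with differences of 0.58 and 0.26.

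Of 13 known target genes of PU.1 measured, 8 were at least 2-fold higher than the control on each MPN array, where 1.13% of all genes were. Higher on each were 10, against 46.8% of all genes, and 0 were lower on each, against 21.1%. Their median difference was 1.43. Mpo and Csf3r, both among those 8, are also on the list of neutrophil markers. Csf1r and Cd68 are also on that of monocytes and macrophages, and Il7r on that of T and NK cells. Counts over these lists are thus not independent. Cybb, the catalytic chain of the phagocyte oxidase, was at 11.00, 10.12 and 11.36 in MPN against 6.95 (difference 3.87, SE 0.58). Lyz2, the lysozyme of phagocytes, was at 11.41, 11.03 and 11.49 against 7.70 (difference 3.61, SE 0.26). Both were far above the control on each MPN array. At the low end were Il7r, a cytokine receptor of lymphocytes that was under the limit in both groups (difference -0.02), and Cd68, a lysosomal protein of macrophages, at 6.11, 6.56 and 7.75 against 6.51 (difference 0.30, SE 0.76). Of 10 partners and antagonists of PU.1, 0 were at least 2-fold higher or lower on each MPN array, and their median difference was 0.14. Of all genes, 1.13% were higher and 5.78% lower by that rule. Cebpe, a factor of granulocyte maturation, had the largest difference among these partners and antagonists, with 6.17, 6.60 and 8.92 against 5.87 (1.35, SE 1.32). MPN mouse 3 alone was far from the control. Irf8 was next at 0.51, and the lowest were Runx1 (-0.84, SE 0.45) and Jun (-0.62, SE 0.39). Among targets and partners 0 passed the adjusted test, and the 2 lists were not tested against each other.

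**Figure D3:**
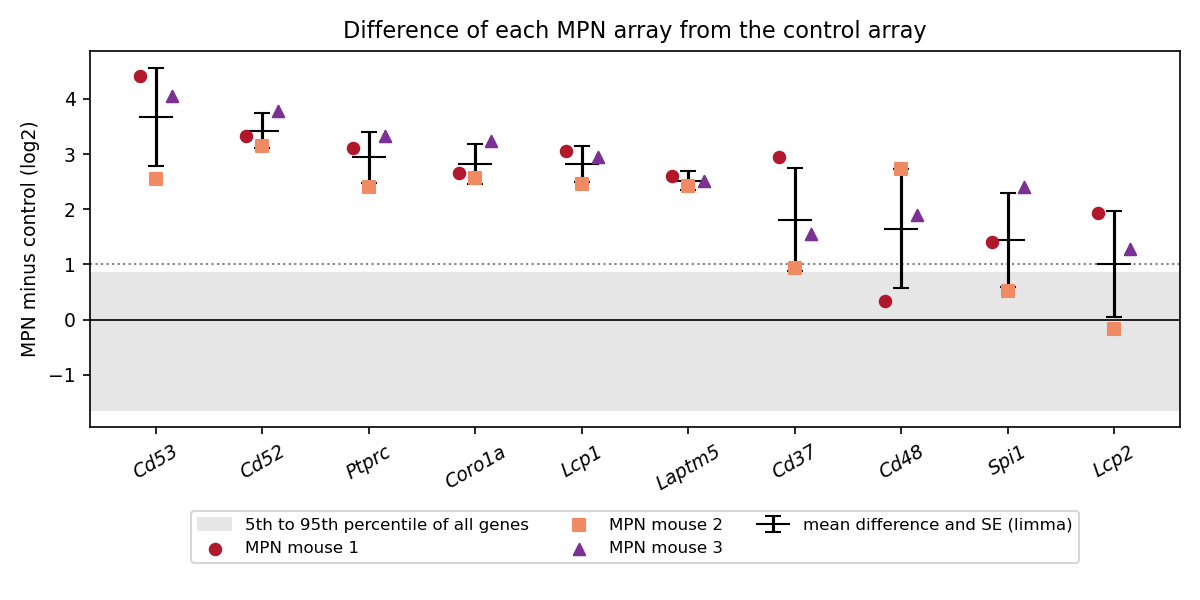
Log2 difference of each MPN array from the control array for the 10 members, ordered by the mean difference (bar, with the SE from limma); the grey band spans the 5th to 95th percentile of all genes and the dotted line marks a 2-fold difference. The points of Cd53, Cd52, Ptprc, Coro1a, Lcp1 and Laptm5 lie at 2.40 or above. Those of Cd37, Cd48, Spi1 and Lcp2 span at least 1.88 each, and those of Cd53 span nearly as much, 1.87.

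MPN mouse 2 had the lowest MPN value for 9 of the 10 members. MPN mouse 1 had the highest value for 5 members and MPN mouse 3 for 4. The median difference of the members from the control was 2.80 in MPN mouse 1, 2.44 in MPN mouse 2 and 2.73 in MPN mouse 3. The summed level of the members was 13.05, 12.32 and 13.05 in MPN mice 1, 2 and 3 against 9.95 in the control, so MPN mouse 2 was the lowest MPN array by this measure too, and all were above the control. Without MPN mouse 2, 9 members were at least 2-fold higher on each remaining MPN array, with Cd48 the exception, and 373 of all 19938 genes were. Without MPN mouse 1 the counts were 7 members and 378 of all genes, and without MPN mouse 3 they were 6 and 378. With all MPN mice they were 6 and 225, so leaving out an array raised the count over all genes each time.

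Likeness to Ptprc was measured as the Euclidean distance over the 3 differences, MPN array minus control array, and carries no test. The 10 nearest named genes were Lilrb4a, Cd14, Clec4d, Lcp1, Alox5ap, Ngp, Coro1a, Cks2, Aoah and Plaur, at distances from 0.340 to 0.630. Lcp1 and Coro1a among them are members. Lilrb4a, an inhibitory receptor of myeloid cells, was at 10.46, 9.29 and 10.48 in MPN against 7.09. Cd14, a co-receptor for endotoxin, was at 9.32, 8.23 and 9.32 against 5.88, and Ngp, a granule protein of neutrophils, at 12.17, 11.87 and 12.27 against 9.11. The measure picks genes whose differences from the control are like those of Ptprc in size, so the size of their differences is not a finding. The 3 differences share 1 control array, so this likeness rests on the control value of each gene as well as on the MPN values. Cd52 (0.899) and Laptm5 (0.950) were the next members by distance, and Lcp2 (3.49) and Cd48 (3.13) were the farthest.

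Other genes that most leukocytes use showed the same direction in count. Of 19 measured, 16 were higher than the control on each MPN array, where 46.8% of all genes were. At least 2-fold higher on each were 9, where 1.13% of all genes were, and 0 were lower on each, where 21.1% were. The median difference of the 19 was 1.71. Cytip, a regulator of leukocyte adhesion, was at 7.11, 5.56 and 8.03 in MPN against 4.12 (2.78, SE 1.12), a difference whose size is uncertain because the control value is under the background limit. Plek, the kinase C substrate pleckstrin, was at 9.56, 8.40 and 10.13 against 6.66 (2.70, SE 0.80). The smallest differences were those of Ptprcap and of Was, the gene of an actin regulator, at 5.57, 5.85 and 5.41 against 5.36 (0.25, SE 0.24). The 3 that overlapped were Ptprcap, Itgb2 and Sla. Itgb2, the beta chain of leukocyte integrins, was at 8.64, 5.32 and 8.61 in MPN against 5.50, and Sla, an adaptor of antigen receptor signalling, at 8.92, 4.73 and 7.91 against 5.15. Both were low in MPN mouse 2, as Lcp2 was, and high in the other MPN mice. Of the 19 genes 0 passed the adjusted test.

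Markers of neutrophils were higher on the same arrays as the members. Of 13 neutrophil markers, 13 were higher than the control on each MPN array, where 46.8% of all genes were. At least 2-fold higher on each were 11, where 1.13% of all genes were, and the median difference of the markers was 3.00. Their summed level, the log2 of the sum of linear values, was 15.20, 14.83 and 15.31 in MPN against 13.12 in the control. Mmp8, the collagenase of neutrophil granules, was at 10.77, 10.19 and 11.04 in MPN against 5.90, and Camp, a granule peptide, at 11.67, 11.50 and 11.71 against 8.08. Ly6g, a surface marker of neutrophils, was at 8.59, 6.66 and 7.86 against 3.40, which is under the limit. The smallest differences were those of S100a9 (1.01, SE 0.23) and Csf3r (1.35, SE 0.36). S100a8 and Mpo were high on the control array too, at 11.15 and 10.45, against MPN means of 12.78 and 11.88. On the control array 10 of the 13 were above the background limit, where 51.2% of all genes were. The part of neutrophil RNA in the members' differences was not tested. Cxcr2, a receptor of mature neutrophils, was at 9.78, 4.20 and 9.46 in MPN against 3.84, and was under background in MPN mouse 2 and in the control.

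Markers of other blood cells were less uniform. Of 10 monocyte and macrophage markers, 5 were higher on each MPN array, close to the 46.8% of all genes that were. At least 2-fold higher on each was 1, where 1.13% of all genes were, and the median difference was 0.29. That 1 was Ccr2, a monocyte chemokine receptor, at 7.10, 9.96 and 8.46 in MPN against 5.02, and the list's summed level was 8.97, 10.45 and 9.74 in MPN against 8.53. The macrophage genes Adgre1, Mrc1 and Cd163 were under the background limit on all arrays. Cd68 and Cx3cr1 were above it on all arrays, and C1qa, a complement gene of macrophages, was at 5.33, 5.84 and 5.07 in MPN against 5.12. Of 7 B lineage markers 0 were 2-fold higher on each array, with a median of 0.14 and a summed level of 8.22, 11.42 and 7.91 in MPN against 9.99. Vpreb1, a gene of B cell precursors, set that spread, with 4.36, 11.26 and 4.80 in MPN against 9.64. It was high in MPN mouse 2, where 9 of the 10 members were lowest in MPN, and in the control, where the members were lower still, Lcp2 excepted. Of 8 T and NK markers, 1 was at least 2-fold higher on each MPN array, which was Nkg7, a granule gene, at 6.80, 8.26 and 8.91 against 5.69. Of the T cell genes, Cd3d and Cd3g were under the limit on all arrays, while Cd3e was at 5.78, 5.36 and 5.25 in MPN against 5.05, just over the limit in MPN and under it in the control. Cd2 was at 5.23, 5.39 and 4.73 against 4.69.

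Markers of mast cells, basophils and eosinophils stood apart in MPN mouse 2. Their summed level was 6.87, 11.29 and 9.45 in MPN against 7.87 in the control. Prg2, a granule gene of eosinophils, was at 5.14, 9.20 and 5.0 in MPN against 4.70, and Cpa3, a protease of mast cells, at 4.00, 7.81 and 4.51 against 4.18. Mcpt8, a protease of basophils, was at 4.79, 10.69 and 9.24 against 7.29. These 3 markers were highest in MPN mouse 2 and under the background limit in MPN mouse 1. The other 2 of the list, Ms4a2 (4.05, 3.78 and 4.05 in MPN against 3.78) and Epx (4.45, 4.74 and 4.59 against 4.30), were under the background limit on all arrays. Megakaryocyte markers had a summed level of 7.68, 9.35 and 8.50 in MPN against 7.01, with a median difference of 1.27. At least 2-fold higher on each MPN array were 0 of them, where 1.13% of all genes were. Pf4, a platelet chemokine, was at 6.29, 8.35 and 5.89 in MPN against 5.03. Of 5 dendritic cell markers 0 were above the limit in the control, where 51.2% of all genes were. An MPN mean above it was found for 2, against 54.4% of all genes. Of 5 erythroid markers 0 were at least 2-fold higher on each MPN array, against the same 1.13% of all genes. The part of these cells in the members' values was not tested.

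**Figure D4:**
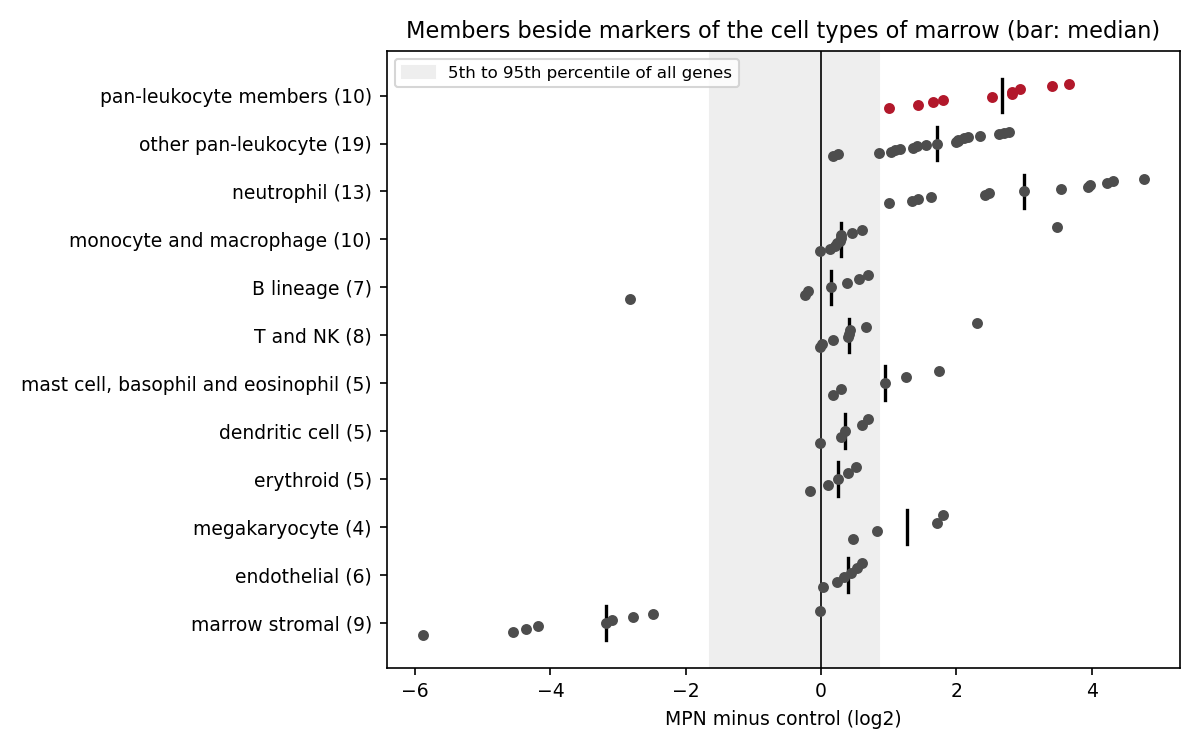
Log2 difference, MPN mean minus control, of the 10 members, of other pan-leukocyte genes and of marker genes of marrow cell types, with 1 point a gene, a bar at each median and the number of genes in brackets; the grey band spans the 5th to 95th percentile of all genes. The medians are 2.67 for the members, 1.71 for the other pan-leukocyte genes, 3.00 for neutrophil markers and -3.18 for marrow stromal markers.

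Markers of the sorted population ran opposite to the members relative to the control array. Of 9 marrow stromal markers, 8 were at least 2-fold lower than the control on each MPN array, where 5.78% of all genes were, and the median difference was -3.18. Their summed level was 10.44, 9.57 and 10.53 in MPN against 13.38 in the control. Among the MPN mice alone they did not run opposite. The members' summed level of 13.05, 12.32 and 13.05 was lowest in MPN mouse 2 too. Lepr, the leptin receptor of perivascular stroma, was at 6.85, 5.81 and 7.17 in MPN against 10.80, and Cxcl12, the chemokine of the stem cell niche, at 9.65, 8.39 and 8.75 against 11.42. Kitl, the stem cell factor, had the lowest difference (-5.89, SE 0.35), followed by Lum, a matrix proteoglycan (-4.55, SE 0.90), and both had MPN means under the limit. On the control array stromal markers were thus high while 8 of the 10 members were above background, and in MPN the stromal markers were lower and the members higher. Nes, whose promoter drives the reporter, was at 4.56, 3.92 and 4.26 in MPN against 4.26, under the limit in both groups. Pecam1, the gene of CD31, against which the cells were sorted, was at 5.36, 6.04 and 5.31 in MPN against 4.97, a difference of 0.60 (SE 0.39, adjusted p = 0.512), far smaller in size than that of Ptprc. Of 6 endothelial markers 0 were at least 2-fold higher on each MPN array, where 1.13% of all genes were, with a median difference of 0.40. The differences of Ptprc and Pecam1 were not tested against each other, and the gene of the Ter119-associated glycophorin was not analysed here. Of the stromal and endothelial markers 0 passed the adjusted test.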

How the data were processed

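Per the submitters' processing notes, the authors used RMA (robust multi-array average), which corrects background, normalises arrays to one distribution and summarises probes. The table they deposited holds log2 values from 1.55 to 13.63. No RMA version, probe set definition or genome build is named in the labels. Per the labels' protocols, RNA was isolated with a Picopure kit and labelled with biotin, and the design text names amplification with the NuGEN Ovation system.

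The table holds 35556 probe sets, of which 21789 have 1 gene symbol in the platform annotation, 1621 have several and 12146 are unnamed here. A gene with more than 1 probe set was represented by its brightest (by the mean of 4 arrays), giving 19938 genes, 19856 of them matched by gene ID to RefSeq. RMA compresses differences near background, and precision is limited by having 4 arrays. Probe sets differ in brightness, so a place against the receptor genes is approximate, a summed level is dominated by the brightest probe sets, and no member's level is ranked against another's.

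MPN was compared with control with limma 3.58.1 under R 4.3.3 (a two-sided moderated test by lmFit and eBayes, Benjamini-Hochberg over all genes, threshold 0.05), with 2 residual and 1.39 prior degrees of freedom. SE is the standard error of that difference. The steps were tested on simulated data. A gene at least 2-fold from the control on each MPN array was counted as a description of size. Members, lists and alternatives were chosen with earlier results of these data known. All members are named. Families of few genes are named in full, and from longer lists of related genes the 2 highest and 2 lowest differences. Markers of cell types are given as list counts, with examples picked once their values were known. Listed genes without a probe set of 1 symbol were not used here. Alternatives left out each MPN mouse, averaged probe sets, kept only genes above background, rescaled the arrays in 4 ways, changed the variance prior or moved the background limit.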

Additional observations from a re-analysis of the deposited data

How the results depend on the processing

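With 1 control mouse and 3 MPN mice, 2 residual degrees of freedom limit the test, and differences against values near the background limit of 5.21 are uncertain in size. In all alternatives run, 0 of the 10 members passed limma's adjusted threshold, and each member stayed higher in MPN in its mean. Over all genes, the count past the threshold was 0 as deposited, 95 after cyclic loess and 153 after the arrays were shifted to one median of the receptor genes. That shift also gave the lowest median difference of the members, 2.41, beside 2.67 as deposited. Leaving out 1 MPN mouse at a time gave medians of 2.56 to 2.76. The same step gave 6 to 9 members, and 373 to 378 of all genes, at least 2-fold higher on each remaining MPN array, against 6 members and 225 genes with all of them. Under each rescaling of the arrays the count stayed at 6 members, while that of all genes was 266 after repeated quantile normalisation, 209 after cyclic loess or a shift to one median, and 153 after the receptor gene shift. The count of members above background in the control was 7 with the limit at the 99th percentile of receptor genes and 10 at the 90th. It was 9 after the receptor gene shift, and also 9 without MPN mouse 2. Adjusted p for Laptm5 ran from 0.0535 to 0.454 over the alternatives, and for Ptprc from 0.102 to 0.548. Averaging probe sets changed no member's value, since each has 1. No paired analysis was possible, because there was 1 control mouse for 3 MPN mice. The cause of these changes was not tested.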
